A study of Mus musculus with 36 samples.

Results

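miR-210 is a single mouse microRNA hairpin that gives a pair of mature strands, mmu-miR-210-3p and mmu-miR-210-5p (written without the species prefix below), and both were followed through a small RNA sequencing series of cystic and control kidneys. The members were chosen by name, and they are 2 of the 1915 mature miRNAs in the count table, each listed in 1 row. The series modelled autosomal dominant polycystic kidney disease (ADPKD) on a C57BL/6 background. Controls, called WT here, carried homozygous floxed Pkd1 (Pkd1f/f) or floxed Pkd2 (Pkd2f/f) without Cre and were age-matched littermates, and KO animals carried the same floxed alleles with HoxB7-Cre, which acts in the ureteric bud lineage and the collecting duct. Kidneys came from pups on postnatal day 1, 3 or 7 (P1, P3, P7), so that model, age and genotype formed 12 groups of 3 libraries, 36 libraries in all. All nephron segments, vessels and blood of the kidney were in the RNA while the deletion was limited to the Cre-expressing cells, and fewer cells of a type and less RNA per cell cannot be told apart. The labels do not tie libraries to separate animals, so p-values measure the spread between these libraries, which may be technical.

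miR-210 is the best known microRNA of the response to low oxygen. Its gene is a transcriptional target of the hypoxia-inducible factors (HIF), and the 3p strand is the one usually found in the silencing complex, where it lowers targets such as the iron-sulfur cluster scaffold Iscu, and with them mitochondrial respiration, and the ephrin Efna3. In the kidney HIF is active in the poorly oxygenated medulla and, in polycystic disease, has been described in cyst walls. Oxygen, HIF and mRNA targets were not measured in the libraries used here, so the name of the miRNA is background and not a reading of oxygen in these kidneys.

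The sequences are shown because the strands are counted separately, have different seeds, and so would pair with different targets. They are the RefSeq entries for the mouse build GRCm38.p6, written 5′ to 3′, with the seed (bases 2 to 8) of each mature strand in capitals.
miR-210-3p: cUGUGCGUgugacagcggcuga
miR-210-5p: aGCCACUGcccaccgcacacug
Each strand is 22 bases long. None of the other mature sequences among the 1679 in the RefSeq table shared either seed (0 for each strand).

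The hairpin below carries the 5p strand at bases 28 to 49 and the 3p strand at bases 66 to 87, both in capitals, with 16 bases between them.
mir-210 hairpin: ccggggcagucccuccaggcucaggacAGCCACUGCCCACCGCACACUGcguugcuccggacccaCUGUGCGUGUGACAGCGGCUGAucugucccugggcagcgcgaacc
It is 110 bases long with a GC content of 69.1%, and RNAfold gave it a minimum free energy of -48.0 kcal/mol with 35 base pairs, 16 of them between the arms. The hairpin, Mir210, lies on the minus strand of chr7:141221384-141221493, with the 3p strand at chr7:141221407-141221428 and the 5p strand at chr7:141221445-141221466. In the GENCODE annotation it overlapped 0 other genes. The nearest gene was Rassf7 on the plus strand, 2726 bases away, followed by Phrf1 at 7291 bases and Lmntd2 at 7304 bases.

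Both strands were present in all 36 libraries. Library totals ran from 12569939 to 32663566 reads. Reads of miR-210-3p ranged from 526 to 9424 per library with a median of 3973, and those of miR-210-5p from 14 to 384 with a median of 133.5. After scaling with trimmed mean of M values (TMM) factors, expressed as counts per 1000000 reads (CPM), miR-210-3p stood at 76.3 to 326 CPM (median 154) and miR-210-5p at 2.06 to 12.9 CPM (median 4.26). A floor of 3 reads corresponded to 0.0593 to 0.471 CPM, below every value of either strand, and covers counting error only. Ranked by reads, miR-210-3p was between the 95th and the 171st miRNA of a library and miR-210-5p between the 305th and the 445th. With 820 to 1199 miRNAs detected per library, the 3p strand lay in the upper part of this order and the 5p strand below it. The 3p strand was the main product of miR-210 in these kidneys.

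A few facts of the whole series bear on these levels. The kidney identity of the libraries was checked on miR-192-5p and miR-194-5p, abundant in the proximal tubule, which were found in every library at 3410 to 26700 CPM and 129 to 1010 CPM. Reads of miR-10a-5p and miR-10b-5p took 31.4% to 81.0% of a library, and TMM factors ran from 0.395 to 2.41. Within a group, the library with the highest miR-10 share was also the lowest in miR-210-3p in 8 of 12 groups and in miR-210-5p in 7 of 12 groups. With 3 libraries per group some such matches arise without any link, and the same count for other miRNAs was not taken. The miR-10 share was entered as a covariate in an alternative fit, and the value from that fit is given wherever it turned a sign or changed a call.

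**Figure D1:**
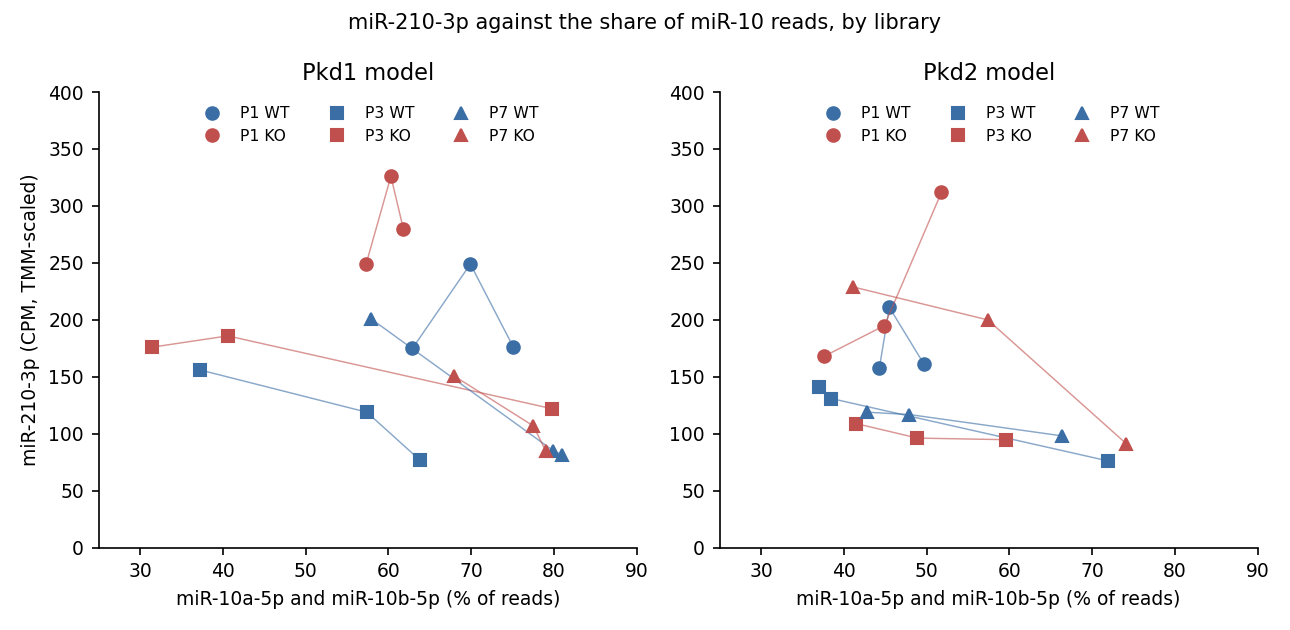
miR-210-3p in CPM (y axis) against the percentage of reads that were miR-10a-5p or miR-10b-5p (x axis), with 1 point per library, the Pkd1 model left and the Pkd2 model right. Thin lines join the 3 libraries of a group, and in 8 of 12 groups the point farthest to the right is also the lowest. The same count for other miRNAs was not taken.

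The levels of the 12 groups formed a continuous series. The lowest mean of miR-210-3p was 100 ± 7.72 CPM (SD, n = 3) in Pkd2 KO at P3 and the highest was 285 ± 38.3 CPM (SD, n = 3) in Pkd1 KO at P1. From the bottom, Pkd2 KO at P3 was followed by Pkd2 WT at P7 (111 ± 11.4), Pkd1 KO at P7 (114 ± 33.6), Pkd2 WT at P3 (116 ± 34.8), Pkd1 WT at P3 (118 ± 39.8) and Pkd1 WT at P7 (123 ± 67.9). The upper groups were Pkd1 KO at P3 (162 ± 34.5), Pkd2 KO at P7 (174 ± 72.5) and then the P1 groups, Pkd2 WT (176 ± 29.6), Pkd1 WT (200 ± 42.5), Pkd2 KO (225 ± 76.4) and Pkd1 KO. Every pair of neighbours in this order overlapped, so the order itself cannot be resolved step by step, although the 4 P1 groups held the 4 highest means.

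The order differed for miR-210-5p. Its lowest mean was 3.03 ± 0.946 CPM (SD, n = 3) in Pkd1 KO at P7. The next 6 groups lay between 3.59 ± 0.0516 CPM in Pkd2 KO at P3 and 4.73 ± 0.943 CPM in Pkd2 KO at P1, and were 5 of the 6 Pkd2 groups with Pkd1 WT at P7 (4.67 ± 1.27 CPM) among them. The upper 5 groups were Pkd1 WT at P1 (5.96 ± 1.06), Pkd1 WT at P3 (5.98 ± 0.952), Pkd1 KO at P3 (7.58 ± 2.49), Pkd2 KO at P7 (7.73 ± 4.77) and Pkd1 KO at P1 (7.90 ± 1.52). Neighbours overlapped here as well.

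**Figure D2:**
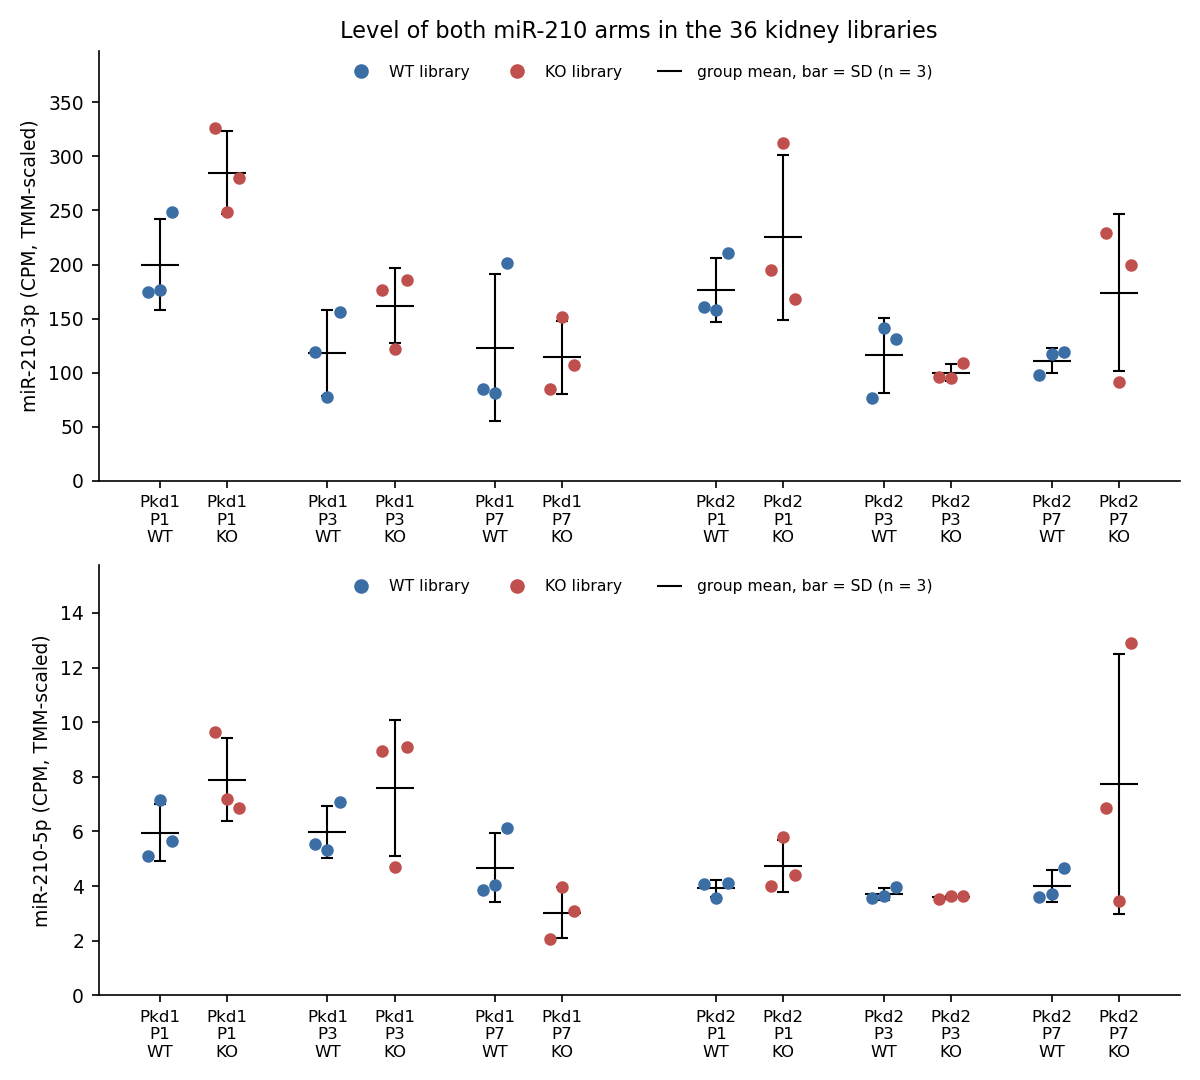
Level of miR-210-3p (top) and miR-210-5p (bottom) in CPM on linear axes from 0, with 1 point per library, WT in blue and KO in red, and black bars for the group mean and SD (n = 3). The 3p strand is highest in the P1 groups, and the 5p strand reaches its highest value, 12.9 CPM, in 1 Pkd2 KO library at P7.

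To ask whether loss of Pkd1 in the collecting duct changed miR-210, KO and WT kidneys were compared at each age. At P1 miR-210-3p was at 175, 176 and 249 CPM in WT replicates 1, 2 and 3 and at 326, 249 and 280 CPM in KO. The KO libraries all lay above the WT libraries, the closest pair both rounding to 249. On the log2 scale the difference was 0.57 (SE 0.34, 95% confidence interval -0.16 to 1.29), which did not pass in the quasi-likelihood test of edgeR (adjusted p = 0.597). In that comparison 0% of the 706 miRNAs tested passed an adjusted p of 0.05, 8.36% had an unadjusted p under 0.05, and 7.65% had groups that did not overlap with KO higher, so the separation of miR-210-3p was shared with many other miRNAs. DESeq2 called 8 miRNAs there, and miR-210-3p was not among them. With the miR-10 covariate its log2 fold change was 0.33 (SE 0.25, edgeR adjusted p = 0.709).

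The 5p strand at P1 was at 5.10, 7.15 and 5.64 CPM in Pkd1 WT and at 9.65, 7.18 and 6.87 CPM in Pkd1 KO. The groups overlapped, with KO3 below WT2. This was a log2 fold change of 0.48 (SE 0.30, interval -0.16 to 1.11, edgeR adjusted p = 0.602). With the miR-10 covariate it was 0.27 (SE 0.23, edgeR adjusted p = 0.754).

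At P3 Pkd1 WT kidneys held 119, 77.0 and 156 CPM of miR-210-3p and Pkd1 KO kidneys 176, 122 and 186 CPM. The lowest KO library lay within the WT range, and the log2 fold change was 0.48 (SE 0.34, interval -0.24 to 1.20, edgeR adjusted p = 0.721, 0% of 706 miRNAs called, 9.07% at an unadjusted p under 0.05 and 4 by DESeq2). For the 5p strand the values were 5.54, 5.33 and 7.07 CPM in WT and 8.95, 4.71 and 9.08 CPM in KO. KO2 was below all WT libraries and the other KO libraries above them, with a log2 fold change of 0.38 (SE 0.29, interval -0.24 to 1.01, edgeR adjusted p = 0.74). KO2 was also the library of its group with the highest miR-10 share, 79.8%, against 31.4% and 40.6% in KO1 and KO3. With that share as a covariate, neither strand changed its sign or its side of the threshold.

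At P7, the latest age sampled, miR-210-3p stood at 85.3, 81.5 and 201 CPM in Pkd1 WT and at 85.0, 151 and 107 CPM in Pkd1 KO. WT3 was above every KO library and the other WT libraries were near the lowest one. The log2 fold change was -0.03 (SE 0.34, interval -0.75 to 0.69, edgeR adjusted p = 0.986, 0.425% of miRNAs called), and its sign turned with single libraries, from -0.25 to 0.43 when each was left out and 0.43 without WT3. With the miR-10 covariate it was 0.08 (adjusted p = 0.935).

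miR-210-5p at P7 was at 3.84, 4.03 and 6.12 CPM in Pkd1 WT and at 2.06, 3.95 and 3.07 CPM in Pkd1 KO. KO2 lay between the WT libraries and the other KO libraries below them, and the KO values rested on 14, 58 and 30 reads. The log2 fold change of -0.56 (SE 0.31, interval -1.22 to 0.11) did not pass (edgeR adjusted p = 0.592). Whether the genotype difference changed between P1 and P7 was tested directly, and the log2 difference was -0.60 (SE 0.48, adjusted p = 0.585) for the 3p strand and -1.03 (SE 0.43, interval -1.95 to -0.12, unadjusted p = 0.0297, adjusted p = 0.389) for the 5p strand, where 0.142% of miRNAs were called by edgeR.

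In the Pkd2 model miR-210-5p was higher in KO than in WT kidneys at P7, about 2-fold, and this was the one genotype comparison in which either strand passed the test. WT libraries held 3.59, 3.71 and 4.66 CPM of miR-210-5p, from 57, 86 and 126 reads. KO libraries held 6.84, 3.47 and 12.9 CPM, from 239, 46 and 365 reads. KO1 and KO3 were above every WT library and KO2 below every one, so the groups overlapped. edgeR gave a log2 fold change of 1.02 (SE 0.31, interval 0.35 to 1.69), a fold of 2.03, with an adjusted p of 0.0422 in a comparison where 12.6% of 746 miRNAs were called, 67 higher and 27 lower, or 7 and 0 when scaled by library totals alone.

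This call was a narrow one. Leaving out KO3, the library at 12.9 CPM, gave a log2 fold change of 0.44 (adjusted p = 0.363), and the call was also lost without WT1 (0.95, adjusted p = 0.104), without WT2 (0.91, 0.163) and without WT3 (1.12, 0.0783). Without KO2, or with KO1 left out, it was kept, and the 6 values ran from 0.44 to 1.32. It was also lost with replicate number as a block (0.86, adjusted p = 0.0789), with library totals alone (1.15, adjusted p = 0.259) and when only the groups compared were fitted (1.09, adjusted p = 0.193).

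The 3p strand set the same libraries apart at P7. Pkd2 WT held 98.2, 117 and 119 CPM of miR-210-3p, and Pkd2 KO held 229, 91.5 and 200 CPM. Again KO1 and KO3 were above all WT libraries and KO2 below all. On the log2 scale the difference was 0.70 (SE 0.30, interval 0.07 to 1.34, unadjusted p = 0.0312), with an edgeR adjusted p of 0.121. It passed without KO2 (0.97, adjusted p = 0.0165) and with the miR-10 covariate (0.74, adjusted p = 0.0298), but was 0.45 without KO1 (adjusted p = 0.337), and no other fit called it.

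Several other measures differed between these libraries, though not all in the order of miR-210. KO2 had 74.1% of its reads in miR-10a-5p and miR-10b-5p, against 41.1% and 57.4% in KO1 and KO3 and 42.8% to 66.4% in WT. The 4 erythroid markers (miR-451a, miR-144-3p, miR-144-5p and miR-486a-5p, of which 0 were absent) summed to 4710, 3510 and 5650 CPM in KO and to 2240 to 2720 CPM in WT, so that KO3, highest in miR-210-5p, was also highest in them. The 2 endothelial markers, miR-126a-3p and miR-126a-5p, summed to 15600, 12100 and 10500 CPM in KO and to 15600 to 23700 CPM in WT, with KO3 the lowest. The 5 striated muscle markers summed to 107, 26.8 and 67.5 CPM in KO and 18.7 to 19.6 CPM in WT, and the 5 leukocyte markers to 425 to 567 CPM in KO and 353 to 465 CPM in WT, which overlapped. KO2, below every WT library in both strands, was above every WT library in the erythroid and striated muscle sums. Smooth muscle markers summed to 79200, 43200 and 39600 CPM in KO and 40600 to 66600 CPM in WT. Epithelial markers of the miR-200 family summed to 5940 to 6330 CPM in KO and 6040 to 7460 CPM in WT. Liver markers (miR-122-5p, miR-122-3p) summed to 2.63, 14.5 and 4.34 CPM in KO and 0.999 to 2.96 CPM in WT. The part of these cell types in the miR-210 values was not tested.

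Younger Pkd2 kidneys gave no call. At P1 miR-210-3p was at 161, 158 and 211 CPM in WT and at 195, 312 and 168 CPM in KO, with KO2 alone above the WT range. The log2 fold change was 0.38 (SE 0.30, interval -0.25 to 1.01, edgeR adjusted p = 0.972, 0% of 746 miRNAs called, 5.5% at an unadjusted p under 0.05 and 0 called by DESeq2). miR-210-5p stood at 4.08, 3.55 and 4.11 CPM in WT and 3.99, 5.79 and 4.40 CPM in KO, with a log2 fold change of 0.31 (SE 0.31, interval -0.34 to 0.97, edgeR adjusted p = 0.982).

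At P3 the Pkd2 KO libraries were close to each other in both strands. miR-210-3p was at 76.3, 141 and 131 CPM in WT and at 96.3, 94.9 and 109 CPM in KO, all KO values inside the WT range, with a log2 fold change of -0.24 (SE 0.30, interval -0.87 to 0.39, edgeR adjusted p = 1, 0% called, 1.47% at an unadjusted p under 0.05 and 0 called by DESeq2). miR-210-5p lay between 3.56 and 3.97 CPM in WT and between 3.53 and 3.62 CPM in KO. This amounted to -0.08 on the log2 scale (SE 0.31, interval -0.74 to 0.59, adjusted p = 1 in edgeR). Whether the genotype effect differed between P3 and P7 was not tested.

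The difference between the models was tested in a fit of all 36 libraries. At P7 the genotype effect on miR-210-5p was lower in Pkd1 than in Pkd2 by a log2 difference of -1.58 (SE 0.45, interval -2.51 to -0.65, unadjusted p = 0.00167), the 5th smallest p of 775 miRNAs, but it did not pass after adjustment over all of them (edgeR adjusted p = 0.204, 0.387% called). It passed without Pkd2 KO2 (-1.92, adjusted p = 0.00932) and in no other of the 12 fits that left out 1 library, which ranged from -1.92 to -1.0, the latter without Pkd2 KO3. For miR-210-3p the difference at P7 was -0.74 (SE 0.48, interval -1.72 to 0.24, adjusted p = 0.505). At P1 the differences were 0.16 (SE 0.48) for the 3p and 0.14 (SE 0.44) for the 5p strand, both with an adjusted p of 0.945 (0% called, 6.32% at an unadjusted p under 0.05 and 8 called by DESeq2), and at P3 they were 0.67 (SE 0.48, adjusted p = 0.983) and 0.41 (SE 0.44, adjusted p = 1; 0% called, 5.03% at an unadjusted p under 0.05 and 0 called by DESeq2).

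**Figure D3:**
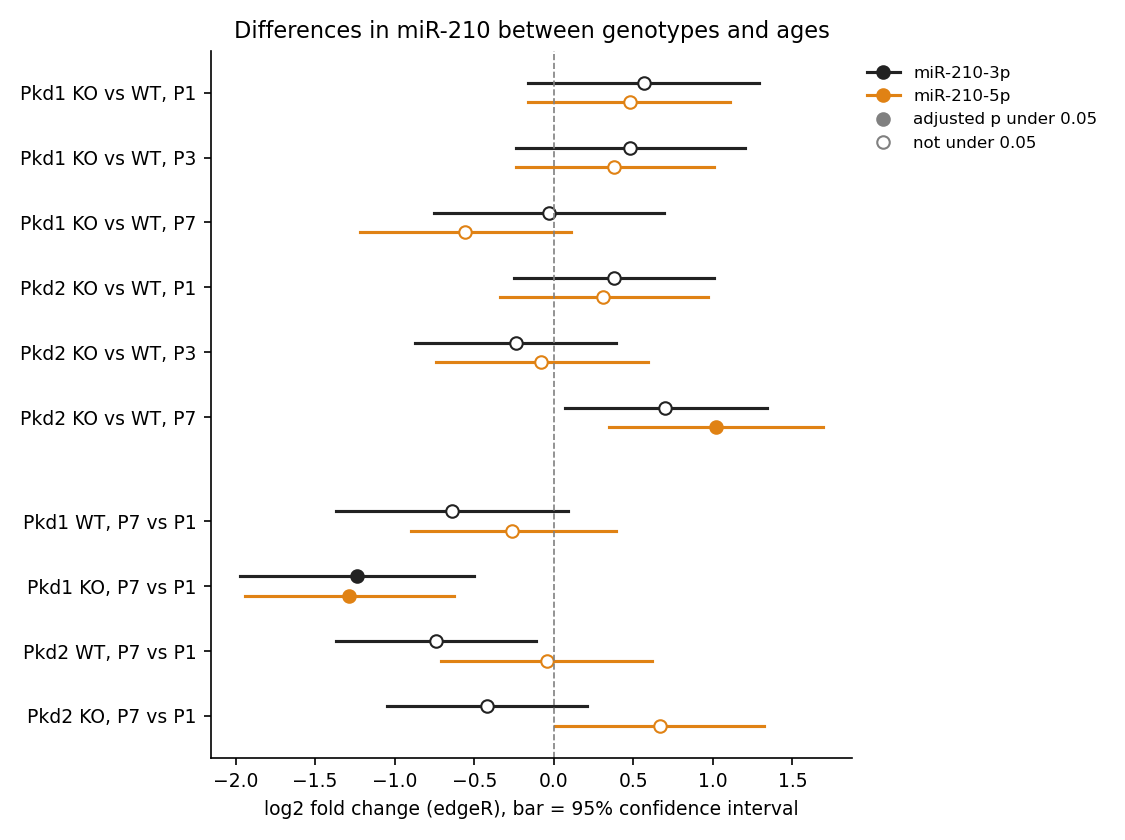
Log2 fold change (x axis) of miR-210-3p in black and miR-210-5p in orange for each genotype and age comparison, with bars for the 95% confidence interval and filled points for an adjusted p under 0.05. Filled points are miR-210-5p in Pkd2 KO against WT at P7 (1.02) and both strands in Pkd1 KO at P7 against P1 (-1.24 and -1.29).

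The level of miR-210 over the first postnatal week was compared within each genotype. In Pkd1 KO kidneys both strands fell between P1 and P7. The 3p strand went from 326, 249 and 280 CPM at P1 to 85.0, 151 and 107 CPM at P7, with every P7 library below every P1 library. Its log2 fold change was -1.24 (SE 0.34, interval -1.97 to -0.50), a fold of 0.424, at an edgeR adjusted p of 0.0254. In this comparison 17.1% of 706 miRNAs were called and 24.9% had groups that did not overlap with P7 lower.

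The 5p strand in Pkd1 KO went from 9.65, 7.18 and 6.87 CPM at P1 to 2.06, 3.95 and 3.07 CPM at P7, again without overlap. In edgeR the log2 fold change was -1.29 (SE 0.31, interval -1.94 to -0.63), a fold of 0.41 (adjusted p = 0.0121). The strands therefore fell by like amounts in this group.

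These falls kept their sign when each of the 6 libraries was left out, from -1.41 to -1.09 for the 3p strand and from -1.45 to -1.08 for the 5p strand, but not their place past the threshold. The 3p call was lost without P1 KO1 (-1.10, adjusted p = 0.0926), P1 KO3 (-1.27, 0.0514), P7 KO1 (-1.09, 0.106) or P7 KO3 (-1.23, 0.0723), and the 5p call without P1 KO1 (-1.08, 0.0591) or P7 KO1 (-1.11, 0.066). The miR-10 share moved with age in this group, from 57.3% to 61.8% at P1 to 67.9% to 79.0% at P7, and with that share as a covariate the log2 fold changes were -0.89 (adjusted p = 0.0227) and -1.0 (adjusted p = 0.00911). Leukocyte markers summed to 188 to 224 CPM at P1 and 326 to 392 CPM at P7 and smooth muscle markers to 44800 to 50500 CPM and 54600 to 86000 CPM, with 0 markers of either list absent, and their part was not tested.

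The choice of scaling mattered for all comparisons of ages. With library totals alone the median log2 fold change of all 706 miRNAs in Pkd1 KO was -1.16, against -0.05 with TMM, and calls went from 71 higher and 50 lower to 3 higher and 189 lower. miR-210-3p then had a log2 fold change of -2.32 (adjusted p = 0.0233), which is -1.17 relative to that median, against -1.19 relative to the TMM median. For miR-210-5p the corresponding values relative to the median were -1.22 and -1.24. A change of scaling shifts all miRNAs by nearly the same amount, so this closeness was fixed in advance and is no test. With TMM, 90.1% of the 706 miRNAs had a higher log2 fold change than miR-210-3p and 90.9% a higher one than miR-210-5p.

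In Pkd1 WT kidneys miR-210-3p went from 175, 176 and 249 CPM at P1 to 85.3, 81.5 and 201 CPM at P7. WT3 at P7 lay within the P1 range and the other P7 libraries below it. edgeR gave a log2 fold change of -0.64 (SE 0.34, interval -1.37 to 0.09, adjusted p = 0.189, 21.5% of miRNAs called, 73 higher and 79 lower, or 4 and 132 with library totals). Without P7 WT3 it was -1.18 and passed (adjusted p = 0.0228), and without P1 WT3 it was -0.42 (adjusted p = 0.462). P7 WT3 had 57.9% of its reads in miR-10a-5p and miR-10b-5p, against 79.9% and 81.0% in WT1 and WT2. With that share as a covariate, miR-210-3p changed neither its sign nor its side of the threshold.

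For miR-210-5p in Pkd1 WT the values of 5.10, 7.15 and 5.64 CPM at P1 and 3.84, 4.03 and 6.12 CPM at P7 overlapped. The log2 fold change was -0.26 (SE 0.30, interval -0.90 to 0.39, edgeR adjusted p = 0.578). Since the difference between the KO and the WT change is the interaction given above, which did not pass for either strand, the fall in Pkd1 KO is not shown to differ from the change in WT.

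In Pkd2 WT kidneys miR-210-3p went from 161, 158 and 211 CPM at P1 to 98.2, 117 and 119 CPM at P7. No P7 library reached a P1 library. The log2 fold change of -0.74 (SE 0.30, interval -1.37 to -0.11, unadjusted p = 0.0246) had an edgeR adjusted p of 0.0767, in a comparison where 28.3% of 746 miRNAs were called (85 higher and 126 lower, or 6 and 216 with library totals) and 25.7% did not overlap with P7 lower. It passed when only these 6 libraries were fitted (-0.74, adjusted p = 0.00658) and with the miR-10 covariate (-0.62, adjusted p = 0.0438), and did not pass when any 1 of the 6 was left out (-0.81 to -0.59).

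The 5p strand gave other values in the same Pkd2 WT libraries. It was at 4.08, 3.55 and 4.11 CPM at P1 and at 3.59, 3.71 and 4.66 CPM at P7, with a log2 fold change of -0.04 (SE 0.31, interval -0.71 to 0.62, edgeR adjusted p = 0.948). In Pkd2 KO the 3p strand went from 195, 312 and 168 CPM to 229, 91.5 and 200 CPM, a log2 fold change of -0.42 (SE 0.30, interval -1.05 to 0.21, adjusted p = 0.323, 24.4% called, 88 higher and 94 lower, or 3 and 263 with library totals). The 5p strand went from 3.99, 5.79 and 4.40 CPM to 6.84, 3.47 and 12.9 CPM, a log2 fold change of 0.67 (SE 0.31, interval 0.01 to 1.32, adjusted p = 0.126), which passed without P7 KO2 (0.97, adjusted p = 0.00931), was 0.08 without P7 KO3 (adjusted p = 0.854), and turned to -0.12 with library totals alone, where the median of all miRNAs was -0.97. The genotype effect at P7 minus that at P1 was 0.32 (SE 0.42, adjusted p = 0.778) for the 3p and 0.71 (SE 0.44, adjusted p = 0.434) for the 5p strand (0.536% of miRNAs called by edgeR).

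Because the strands come from 1 hairpin and 1 library, their ratio does not depend on how libraries are scaled. Over all libraries there were 156790 reads of miR-210-3p and 5101 of miR-210-5p, so that 96.8% of miR-210 reads were of the 3p strand. The background was 277 hairpins with at least 1000 reads over both arms together, whose mature miRNAs are listed for no other hairpin. Their median share of the leading arm was 96.6%, and 49.1% were more uneven than miR-210. Per library the ratio ran from 14.4 to 53.8 reads of 3p for each read of 5p, with a median of 32.1.

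In the Pkd2 model the ratio was lower at P7 than at P1. At P1 it was 39.3, 44.5 and 51.2 in WT and 48.9, 53.8 and 38.1 in KO. At P7 it was 27.3, 31.4 and 25.6 in WT and 33.4, 26.4 and 15.5 in KO. All 6 P7 libraries lay below all 6 P1 libraries. How many other hairpins separate by age in this way was not counted, so the separation is not shown to be particular to miR-210. On the log2 scale the means were 4.69 ± 0.39 (SD, n = 6) and 5.51 ± 0.20 (SD, n = 6), a difference of -0.82, with an exact two-sided permutation p of 0.005 when ages were exchanged within genotype, the smallest p that 400 arrangements can give, and an adjusted p of 0.02 over the 4 ratio tests.

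Leaving out 1 library at a time gave differences from -0.94 to -0.66, and the adjusted p stayed at 0.04 or lower. Markers of other cell types moved with age in the same 12 libraries. The 5 epithelial markers of the miR-200 family summed to 3710 to 4620 CPM at P1 and 5940 to 7460 CPM at P7. The 2 smooth muscle markers summed to 24500 to 35400 CPM at P1 and 39600 to 79200 CPM at P7. The miR-10 share ran from 37.6% to 51.8% at P1 and from 41.1% to 74.1% at P7. The part of these markers and of that share in the ratio was not tested. The P3 libraries of the model had ratios of 21.4, 38.9 and 33.0 in WT and 27.3, 26.2 and 30.1 in KO, so that 1 WT library reached the range of P1. The KO library with the lowest ratio at P7, KO3 at 15.5, is the one that held the highest miR-210-5p level, and the 3 libraries of its group differed far beyond counting error (chi-square per degree of freedom of 43.4, against 0.15 to 6.76 in the other 11 groups).

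In the Pkd1 model the ratio was 34.2, 24.6 and 44.1 in WT and 33.7, 34.8 and 40.7 in KO at P1, and 22.2, 20.2 and 32.8 in WT and 41.2, 38.2 and 34.8 in KO at P7. The P1 and P7 ranges overlapped, and the mean log2 ratios of 4.93 ± 0.43 (SD, n = 6) at P7 and 5.12 ± 0.29 (SD, n = 6) at P1 differed by -0.19 (exact permutation p = 0.32, adjusted p = 0.427). Whether this difference between ages is another one than in the Pkd2 model was not tested. At P3 the Pkd1 ratios ran from 14.4 to 22.1 in WT and from 19.7 to 26.0 in KO, and these groups had the lowest means of the model.

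Between genotypes the ratio did not differ past the adjusted threshold in either model. In Pkd1 the mean log2 ratio was 4.96 ± 0.41 (SD, n = 9) in KO and 4.64 ± 0.48 (SD, n = 9) in WT, a difference of 0.32 (exact permutation within ages, p = 0.0475, adjusted p = 0.095), and it was 0.12 at P1, 0.20 at P3 and 0.63 at P7. At P7 the 3 KO libraries lay above the 3 WT libraries, with an exact permutation p of 0.1 that is the smallest 3 against 3 can give, and 14 to 58 reads of miR-210-5p behind the KO ratios. The pooled difference passed without P1 WT3 (0.39, adjusted p = 0.0255), in a range of 0.25 to 0.39 over the 18 libraries left out in turn. In Pkd2 the means were 4.97 ± 0.54 in KO and 5.07 ± 0.40 in WT (SD, n = 9), a difference of -0.10 (exact permutation p = 0.537, adjusted p = 0.537), and 0.01 without P7 KO3.

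**Figure D4:**
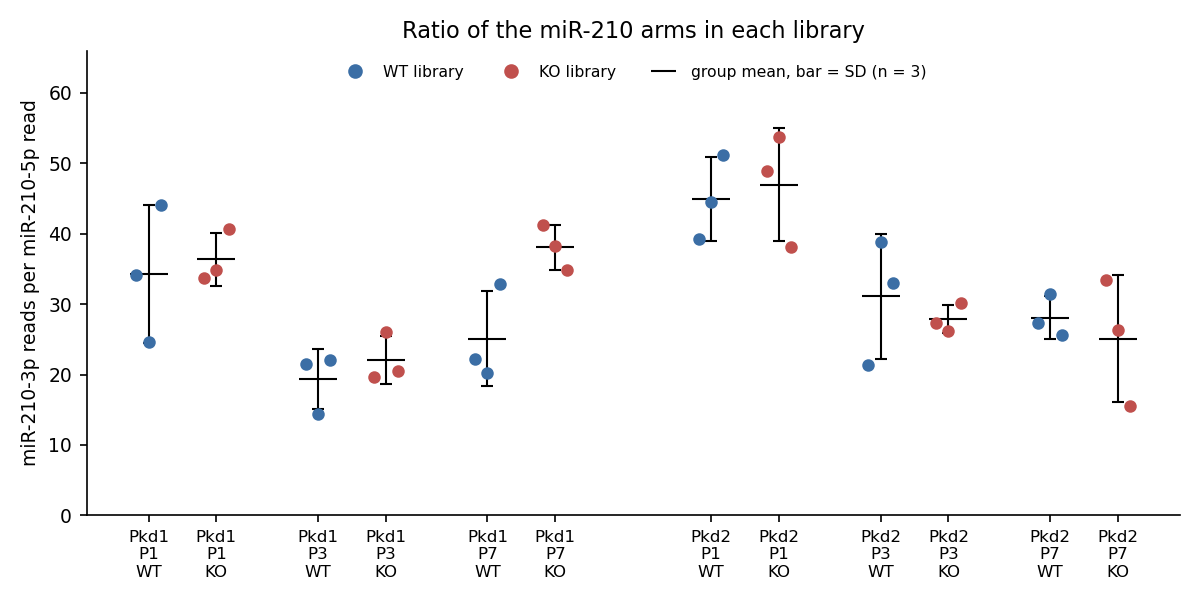
Reads of miR-210-3p for each read of miR-210-5p (y axis, linear from 0), with 1 point per library, WT in blue and KO in red, and black bars for the group mean and SD (n = 3). In the Pkd2 model the P1 libraries lie at 38.1 to 53.8 and the P7 libraries at 15.5 to 33.4. The same separation was not counted for other hairpins.

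Control kidneys of both floxed lines were also set side by side. miR-210-3p did not differ past the threshold, with log2 fold changes of Pkd2 WT over Pkd1 WT of -0.18 (SE 0.34, edgeR adjusted p = 0.771) at P1, -0.02 (SE 0.34, adjusted p = 0.991) at P3 and -0.14 (SE 0.34, adjusted p = 0.855) at P7. The share of miRNAs called was 15.2%, 2.71% and 11.4% of 775. For miR-210-5p every Pkd2 WT library was below every Pkd1 WT library at P1 (3.55 to 4.11 against 5.10 to 7.15 CPM) and at P3 (3.56 to 3.97 against 5.33 to 7.07 CPM). The log2 fold changes were -0.60 (SE 0.31, adjusted p = 0.206) and -0.69 (SE 0.31, adjusted p = 0.288), where 13.8% and 8% of miRNAs did not overlap with Pkd2 lower, and -0.24 (SE 0.32, adjusted p = 0.693) at P7. With the miR-10 covariate the difference of miR-210-5p at P1 was -0.92 and passed (adjusted p = 0.0297).

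The line comparison depended on scaling as well. With library totals alone the medians of all miRNAs were 0.91, 0.11 and 0.86 at the 3 ages, calls at P1 went from 55 higher and 63 lower to 218 and 11 and those at P7 from 68 and 20 to 177 and 4 (45 and 29 with the size factors of DESeq2), and the log2 fold change of miR-210-5p turned to 0.45 at P1 and 0.51 at P7. Relative to the median of all miRNAs it was -0.51 with TMM and -0.46 with library totals at P1. The line and any batch that the labels do not give cannot be told apart.

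The miRNAs whose levels followed miR-210 most closely were looked for among the 774 other miRNAs tested in the 36 libraries, by Pearson's r of log2 CPM. For miR-210-3p these were miR-676-3p (r = 0.719), miR-134-5p (0.714), miR-652-3p (0.696), miR-675-3p (0.673), which is made from the imprinted H19 transcript, and miR-5126 (0.670), with its own 5p strand in 6th place (0.662). For miR-210-5p the 3p strand came first (0.662), followed by miR-676-3p (0.660), miR-344b-3p (0.642), miR-383-5p (0.639), miR-6540-5p (0.621) and miR-27b-5p (0.579). On deviations from the group means the closest to miR-210-3p was miR-652-3p (0.847) and miR-676-3p was in 4th place (0.821), while miR-134-5p dropped to 0.495 (134th). The 5p strand (0.719, 30th), miR-5126 (32nd) and miR-675-3p (41st) also dropped in rank. For miR-210-5p the 3p strand stayed first (0.719) and miR-6540-5p was in 3rd place (0.674), while miR-676-3p (27th), miR-344b-3p (72nd), miR-383-5p (88th) and miR-27b-5p (138th) dropped. All points share their libraries and scaling, and miR-344b-3p, miR-6540-5p and miR-5126 had medians of 0.158, 0.24 and 0.972 CPM, so the values are descriptions.

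Other miRNAs reported to respond to low oxygen or to act on HIF gave a list of 18, all of which were tested. It holds, among others, miR-21a-5p, the miR-23, miR-24 and miR-27 families, the miR-26, miR-103/107 and miR-181 families, miR-155-5p, which is also a leukocyte marker, and miR-429-3p, which is also an epithelial marker. In Pkd1 KO against WT the counts were 0 higher and 0 lower at P1 and P3, and 1 higher and 0 lower at P7, where 0.425% of all miRNAs were called, with list medians of -0.08, -0.01 and 0.09 on the log2 scale beside -0.03, 0.02 and 0.01 for all miRNAs. In Pkd2 they were 0 and 0 at P1 and P3, and 1 higher and 2 lower at P7, where 12.6% of all miRNAs were called, with medians of -0.10, -0.11 and -0.10 beside 0.03, -0.05 and 0.02. With library totals alone the Pkd1 medians at P1 and P3 turned to 0.33 and 0.05 and the Pkd2 median at P1 to 0.09, and 0 of the list were called in any of the 6 genotype comparisons.

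With TMM scaling, the member that rose in both models at P7 was miR-21a-5p, a miRNA of injury and fibrosis that HIF can induce, with log2 fold changes of 1.45 (SE 0.17, adjusted p = 0.00017) in Pkd1 and 1.11 (SE 0.25, adjusted p = 0.0147) in Pkd2. In the Pkd2 comparison where miR-210-5p was called higher, miR-181c-5p fell by 0.68 (SE 0.18, adjusted p = 0.0223) and miR-20b-5p, which can target Hif1a, fell by 0.70 on the log2 scale (SE 0.20, adjusted p = 0.0314). All of these calls were lost with library totals alone.

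With TMM scaling, the list medians and miR-210-3p had log2 fold changes of opposite sign over the first week. The list mixes miRNAs that respond to low oxygen with others that act on HIF, and several share a family. Its median is therefore not a direction of the response to low oxygen. From P1 to P7 the edgeR test called 6 of 18 higher in Pkd1 WT, 10 in Pkd1 KO, 12 in Pkd2 WT and 9 in Pkd2 KO, and 0 lower in each, where 10.3%, 10.1%, 11.4% and 11.8% of all miRNAs were called higher. List medians were 0.50, 0.82, 0.64 and 0.53, beside -0.03, -0.05, -0.06 and -0.07 for all miRNAs. In Pkd1 KO, where both strands of miR-210 fell, miR-21a-5p rose by 2.32 (SE 0.17, adjusted p = 2.07e-07), miR-23a-3p by 1.62 (SE 0.34, adjusted p = 0.00506), miR-181a-5p by 1.10 (SE 0.20, adjusted p = 0.00311) and miR-24-3p by 1.05 (SE 0.15, adjusted p = 0.000242) on the log2 scale. With library totals alone the list medians turned to -0.18, -0.33, -0.09 and -0.38, the sign that miR-210-3p had there as well. The medians of all miRNAs were then -0.68, -1.16, -0.78 and -0.97. As scaling shifts all miRNAs nearly alike, the distance between the 2 kinds of median is no further test. Of the 18, 0, 1, 0 and 1 were then called higher and 0, 0, 0 and 2 lower.

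In the controls of the Pkd2 line, where the list had its most calls with TMM scaling, miR-181a-5p rose by 1.31 (SE 0.17), miR-181c-5p by 0.98 (SE 0.18), miR-24-3p by 0.89 (SE 0.16) and miR-27a-3p by 0.78 (SE 0.17) on the log2 scale, each at an edgeR adjusted p of 0.00336 or lower.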

How the data were processed

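Small RNA of whole kidneys was sequenced in 36 libraries. The authors removed the 3′ adaptor, kept reads longer than 17 bases and aligned them with miRDeep2 to miRBase release 21 and the mouse genome (mm10), per the methods of the study. The submitters' processing notes also name CASAVA 1.8.2 and HTSeq, without a role. The deposited values are raw read counts, not filtered or normalized, with 1 row per mature miRNA and hairpin. Of 1915 mature miRNAs 83 are listed for several hairpins, for which the row holding most reads was taken. Both miR-210 strands have 1 row.

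Groups came from the sample labels. Counts were tested with edgeR 4.0.16 (TMM, quasi-likelihood F test, 1 term per group, Benjamini-Hochberg adjustment over all miRNAs tested) in R 4.3.3, on the 18 libraries of a model or on all 36, after dropping miRNAs that did not reach 10 counts in 3 libraries (706 kept for Pkd1, 746 for Pkd2 and 775 for all). The standard error is the log2 fold change divided by the square root of F. CPM use TMM factors of the 36-library fit. Strand ratios were tested by exact permutation, with p adjusted over 4 tests. The script was tested on simulated data. Alternatives were DESeq2 1.42.0, its size factors, library totals, other filters, summed hairpin rows, a miR-10 covariate, a replicate block, fits of only the groups compared and leaving out each library. Members and lists were chosen with earlier results of these data known. Named miRNAs are both strands, the 5 most correlated with each, and up to 4 called members of the hypoxia list per comparison by smallest adjusted p. Sequences are from RefSeq, folded with RNAfold 2.7.2, and neighbouring genes from GENCODE M21. Replicate libraries differed by a chi-square of 33.3 per degree of freedom or more, so each is a library of its own. Depth ran from 12569939 to 32663566 reads. Standard errors of KO against WT were 0.29 to 0.31 for miR-210-5p, despite its fewer reads, and 0.30 to 0.34 for miR-210-3p.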

Additional observations from a re-analysis of the deposited data

How the results depend on the processing

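Outside of leaving out libraries, 314 of 336 values of the miR-210 comparisons under an alternative kept their direction and their side of the threshold, and 22 did not. Most of the 336 were not past the threshold in the main fits, and 4 of the 22 lost a call. With the miR-10 covariate the log2 fold change of miR-210-3p was 0.08 for Pkd1 KO against WT at P7 (sign turned), 0.74 for Pkd2 KO against WT at P7 and -0.62 for Pkd2 WT at P7 against P1 (both now past the threshold), and -0.05 for the difference of genotype effects at P1 (sign turned), and that of miR-210-5p between control lines at P1 was -0.92 (adjusted p = 0.0297). With library totals alone miR-210-5p in Pkd2 KO against WT at P7 was 1.15 and no longer passed (adjusted p = 0.259), its change in Pkd2 KO with age turned to -0.12, and the line comparisons turned to 0.87 (P1), 0.11 (P3) and 0.51 (P7) for the 3p and to 0.45 (P1) and 0.51 (P7) for the 5p strand. Fitting only the groups compared gave 1.09 for miR-210-5p in Pkd2 at P7 (adjusted p = 0.193) and -0.74 for miR-210-3p in Pkd2 WT with age (adjusted p = 0.00658). The value near 0 of miR-210-5p in Pkd2 WT with age was 0.02 under DESeq2 and under its size factors, and that of miR-210-3p between lines at P3 was 0.01 with at least 100 counts and 0.04 with hairpin rows summed. The causes were not tested.

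Same-numbered WT and KO libraries had deviations correlated at -0.489 to 0.456, and in no comparison were all 3 over 0.1. The replicate numbers were therefore not taken as pairs, but with 3 libraries per group this rule cannot exclude pairing. In 5 of 18 such pairs a library correlated best with its own number. With the replicate block miR-210-3p was 0.06 for Pkd1 KO against WT at P7 and 0.01 between lines at P3, miR-210-5p was 0.86 for Pkd2 KO against WT at P7 (adjusted p = 0.0789), and the log2 strand ratio of Pkd2 at P7 against P1 was -0.82 with an exact sign-flip p of 0.0312 (adjusted p = 0.125), the smallest p that 6 pairs allow. The block changed no other call.

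Most of the miR-210 values were not past the threshold in the main fits, so staying on that side was common. A call was lost in 10 of the fits that left out 1 library. These concerned miR-210-5p in Pkd2 KO against WT at P7 and both strands in Pkd1 KO with age. Leaving out 1 library kept direction and side of the threshold for 310 of 336 values. Where it did not, miR-210-3p ranged from -0.25 to 0.43 (Pkd1 KO against WT at P7), from -1.18 to -0.42 (Pkd1 WT with age), from -1.41 to -1.09 (Pkd1 KO with age), from 0.45 to 0.97 (Pkd2 KO against WT at P7), and between lines from -0.33 to 0.01, from -0.25 to 0.24 and from -0.36 to 0.42 at P1, P3 and P7. miR-210-5p ranged from -1.45 to -1.08 (Pkd1 KO with age), from 0.44 to 1.32 (Pkd2 KO against WT at P7), from -0.15 to 0.06 (Pkd2 WT with age), from 0.08 to 0.97 (Pkd2 KO with age), from -0.03 to 0.31 and from -1.92 to -1.0 (difference of genotype effects at P1 and P7) and from -0.37 to 0.02 (lines at P7). The strand ratio ranged from 0.25 to 0.39 in Pkd1 KO against WT and from -0.18 to 0.01 in Pkd2 KO against WT.

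The number of miRNAs called also varied. For KO against WT at P7 it was 3 in Pkd1 (0 with library totals to 20 with the miR-10 covariate) and 94 in Pkd2 (7 with library totals to 168 with the covariate). At P1 and P3 in Pkd1 it was 0 and up to 8 and 4 with DESeq2. With age it was 152 in Pkd1 WT (53 with only the groups compared to 246 with the covariate), 121 in Pkd1 KO (88 without a filter to 225 with only the groups compared) and 182 in Pkd2 KO (60 with only the groups compared to 266 with library totals). The differences of genotype effects between ages gave 1 in Pkd1 (0 to 5) and 4 in Pkd2 (0 to 33 with DESeq2), those between models 0 at P1 (up to 8) and 3 at P7 (0 to 7), and the lines 118, 21 and 88 (61 to 229, 2 to 67 and 61 to 181). Leaving out 1 library moved the count for Pkd2 KO against WT at P7 to between 4 (without KO3) and 142 (without KO2), with 11 without WT2 or WT3 and 52 without WT1, that for Pkd1 to between 2 and 8 (8 without WT3), and the age counts to 47 to 87 in Pkd1 KO (47 without P7 KO1), 72 to 162 in Pkd1 WT (72 without P7 WT3), 110 to 200 in Pkd2 KO (110 without P1 KO3) and 137 to 181 in Pkd2 WT.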
